A study of Mus musculus with 10 samples.

Results

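The step from 3.2 to 10 µM of an enone fatty acid, the 9-keto 7(*E*)-hexadecenoic acid called compound **1**, was examined in RAW264.7 cells, a mouse macrophage line, using the 4 RNA-seq libraries made at these doses out of 10 in the series, 2 per dose. **1** is a monounsaturated fatty acid with an α,β-unsaturated carbonyl group, isolated from a marine cyanobacterial mat. Cells of both groups received **1** 1 h before lipopolysaccharide (LPS, 1 µg/mL), and RNA was taken at 12 h, so LPS was shared and the dose differed. The solvent controls held 0.5% DMSO, and the share of DMSO at the doses of **1** is not given in the sources used here. The other 6 libraries, 2 per group, came from cells given DMSO alone, DMSO with LPS, or **1** at 32 µM with LPS. The members of the comparison were all 14172 genes with enough counts to test, of 43432 in the deposited table. The question was where along the doses the response to **1** sets in. Each group rests on 1 cell line, and nothing in the labels says that its 2 libraries came from separate cultures, so the p-values measure the spread between these libraries, which may be technical.

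LPS, a cell wall component of Gram-negative bacteria, is sensed by Toll-like receptor 4. In macrophages this receptor switches on NF-κB, which drives cytokine and chemokine genes, and interferon-β, which acts back on the cells and drives the interferon-stimulated genes through their interferon-stimulated response elements (ISREs). Electrophilic compounds such as α,β-unsaturated ketones can modify cysteines of Keap1, which releases the transcription factor Nrf2 to act on antioxidant response elements (AREs) of genes for quinone reduction, glutathione synthesis and thiol repair.

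The libraries at 3.2 µM held 48089580 and 51834219 counts and those at 10 µM 47823762 and 45966803, so that a level of 5 CPM (counts per 1000000 counts of the library, TMM-scaled) corresponds to 226 to 250 counts in them. All 12 macrophage markers averaged over 1 CPM, and of 6 T cell markers *Cd3e*, *Cd3d* and *Trac* had 0 counts in all 4 libraries, while *Cd3g* and *Cd2* had 0 to 3. The sixth, *Lck*, had 495 and 514 counts at 3.2 µM and 542 and 506 at 10 µM, and the 6 summed to 10.3 to 11.7 CPM. The first replicate at 10 µM stood apart. Its 5 epithelial markers summed to 54.2 CPM, against 0.0664 CPM in the second replicate, 7.59 CPM in the first replicate at 3.2 µM and 0 in the second. Its 5 fibroblast markers summed to 7.87 CPM, against 0.266 CPM in the second replicate and 0.20 to 1.32 CPM at 3.2 µM. It was the only one of the 4 in which 30 genes were over 1 CPM and more than 10 times any other library of the series. None of these 30 genes was among the called genes below, and counts without this library are given beside the results that rest on it. The second replicate at 10 µM differed in signs of RNA quality. Its share of ribosomal RNA counts was 0.130%, against 0.0835% to 0.0923% in the other 3, and its score for short transcripts (the median log2 deviation of 289 protein-coding genes under 1000 nt from their mean over the 10 libraries) was −0.12, against 0.13 to 0.28. The chi-square between replicates was 50.02 per degree of freedom at 10 µM and 3.37 at 3.2 µM. Counts without this library and with the score in the fit are given below.

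A gene was called where edgeR's quasi-likelihood test gave a Benjamini-Hochberg adjusted p below 0.05 over all genes tested and the difference was at least 1.5-fold. Between 10 and 3.2 µM, 36 genes were called, or 0.254% of those tested. Of these, 26 were lower at 10 µM (0.183%) and 10 were higher (0.0706%). The largest decreases were those of *Ccl7*, *Ccl2*, *Clec2d* and *Gm14085*, and the largest increases those of *Gsta1*, *Prl2c2*, *Nqo1* and *Enpp2*. On the adjusted p alone, 92 genes were lower (0.649%) and 36 higher (0.254%). Without the first replicate at 10 µM, 22 genes were called, 15 lower and 7 higher, and 19 of these were among the 36. The 17 that lost the call were *Pcx*, *Cxcl3*, *Tarm1* and *Prl2c2* among the higher genes and *Rsad2*, *Gbp2b*, *Ifit3b*, *Fcgr1*, *Upp1*, *Slamf9*, *Clec2d*, *Mmp3*, *Adra1a*, *Il4i1*, *Gm14085*, *Gm43302* and *Gm2619* among the lower ones. Without the second replicate at 10 µM the count was 66, and with the short-transcript score in the fit it was 93. Without the first or the second replicate at 3.2 µM it was 6 or 5, and *Ccl2*, *Il1a*, *Il1b*, *Ifit3* and *Adh7* were called in both cases. Without either library of DMSO with LPS, which enter through the shared spread, it was 19. Fitted on the 4 libraries alone, edgeR called 0 genes, with 803 at an unadjusted p below 0.05, and DESeq2 called 47. In bulk RNA, a lower level in every cell and fewer cells that express a gene cannot be told apart.

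**Figure D1:**
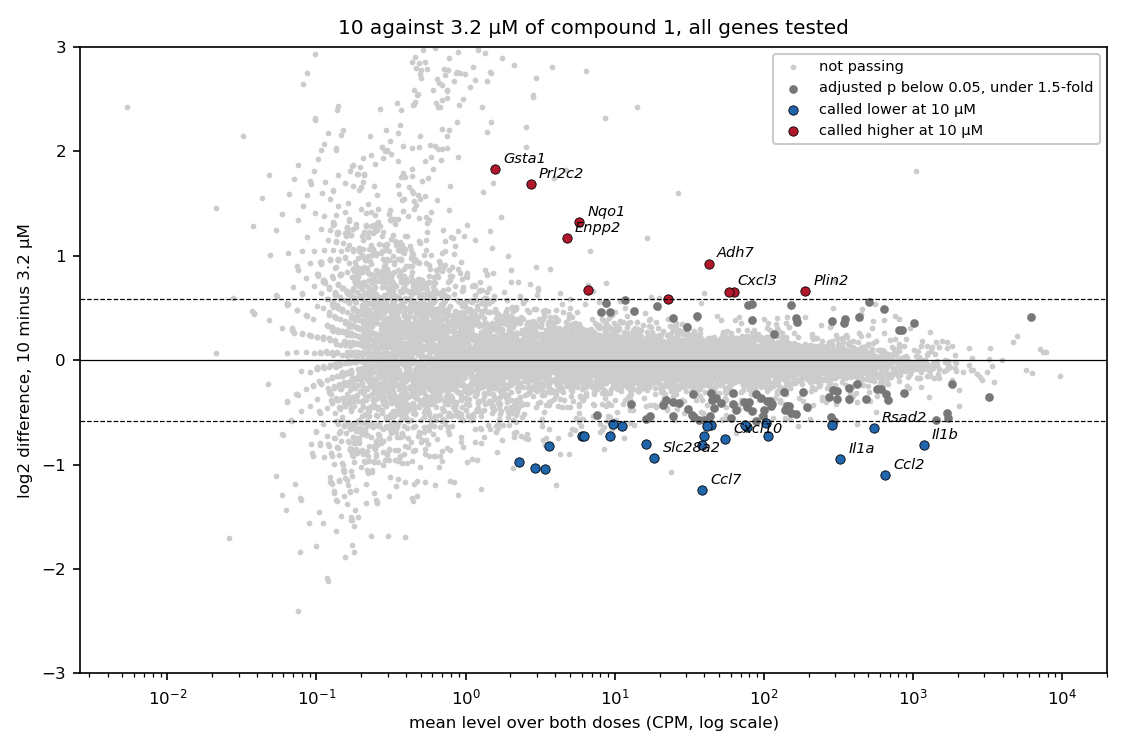
The horizontal axis gives each gene's mean level over the 4 libraries in CPM on a log scale, and the vertical axis the fitted log2 difference, 10 minus 3.2 µM; dashed lines mark 1.5-fold, and 32 genes beyond 3 on the vertical axis, none of them called, lie outside it. The 26 called lower genes reach from low levels up to *Ccl2* and *Il1b*, while the largest called increases, *Gsta1*, *Prl2c2*, *Nqo1* and *Enpp2*, lie under 10 CPM.

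In the chemokine list, 5 of 18 tested members were called lower and 1 higher, against 0.183% and 0.0706% of all genes tested. Chemokines attract leukocytes, and 1 of the 5, *Ccrl2*, is a receptor instead. *Ccl2*, the main attractant of monocytes, was at 906 and 879 CPM in the 2 libraries at 3.2 µM and at 414 and 418 CPM at 10 µM. Both libraries at 10 µM were thus well under both at 3.2 µM, a decrease of 53.3% (log2 difference −1.10, 95% interval −1.19 to −1.01, adjusted p = 7.0e-05). *Ccl7*, a second monocyte attractant encoded beside *Ccl2*, was at 52.3 and 56.6 CPM at 3.2 µM and 22.1 and 23.9 CPM at 10 µM, the largest called decrease (−1.25, interval −1.48 to −1.01, adjusted p = 0.0031). *Cxcl10*, an interferon-induced attractant of T cells, went from 69.9 and 67.3 CPM to 44.3 and 37.0 CPM (−0.75). *Ccl22*, a ligand of CCR4, went from 51.9 and 48.6 CPM to 32.5 and 32.6 CPM (−0.63). *Ccrl2*, an atypical receptor that binds chemerin, went from 50.8 and 47.1 CPM to 29.5 and 26.2 CPM (−0.81). In none of these genes did the 2 doses overlap.

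*Cxcl3*, which attracts neutrophils through CXCR2, was the 1 chemokine called higher. It was at 46.6 and 44.7 CPM at 3.2 µM and at 66.7 and 77.1 CPM at 10 µM (0.66, interval 0.42 to 0.90, adjusted p = 0.047), and it kept its call under 7 of 19 alternative fits. Its relative *Cxcl2* was not called, with a difference of 0.18 and an interval of −0.10 to 0.46. *Ccl9* passed the adjusted p without reaching 1.5-fold (−0.35), and the abundant *Ccl3* did neither (−0.44, adjusted p = 0.075). Over the 18 members of the chemokine list, 15 differences were below 0 and the median was −0.44, against 0.01 over all genes tested. Without the first replicate at 10 µM, 15 of the 18 were below 0, with 5 called lower, none called higher and a median of −0.51. Without the first or the second replicate at 3.2 µM, 1 of the 18 was called, and the medians were −0.35 and −0.48.

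Of 25 cytokines tested, 24 had a difference below 0, against 6733 of all 14172 genes, with a median of −0.28. Called lower were 2 of the 25, against 0.183% of all genes tested. Both encode ligands of the interleukin-1 receptor. *Il1a* was at 440 and 419 CPM at 3.2 µM and 227 and 219 CPM at 10 µM (−0.95, interval −1.05 to −0.84, adjusted p = 3.4e-04). *Il1b*, the most abundant of the called genes, was at 1492 and 1519 CPM at 3.2 µM and 886 and 829 CPM at 10 µM (−0.81, interval −0.91 to −0.71, adjusted p = 4.2e-04). The libraries of a dose lay close together and far from those of the other dose in both genes. *Il1rn*, which encodes the antagonist of the same receptor, passed the adjusted p but not 1.5-fold, going from 2002 and 2001 CPM to 1443 and 1376 CPM (−0.51).

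*Tnf* stood at 1461 and 1441 CPM at 3.2 µM and at 1440 and 1449 CPM at 10 µM, with overlapping libraries, a difference of −0.01 and an interval of −0.09 to 0.08. The whole interval lies within 1.5-fold in either direction. *Il6* was at 81.7 and 79.9 CPM and then 46.0 and 53.6 CPM, and its difference of −0.70 missed the threshold at an adjusted p of 0.056. *Ifnb1*, the interferon-β gene, was near 1 CPM at both doses, and its interval of −1.10 to 0.16 leaves its direction undetermined at this depth. Without the first replicate at 10 µM, 23 of 25 cytokines were below 0, *Il1a* and *Il1b* being the 2 called.

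Inflammatory effector genes were mixed, with 20 of 31 below 0, 2 called lower and a median of −0.14. Of all genes tested, 0.183% were called lower. The called genes were *Mmp3*, which encodes the matrix protease stromelysin-1 (4.66 and 4.65 CPM, then 2.49 and 2.77 CPM, −0.82), and *Lcn2*, which encodes the siderophore-binding lipocalin 2 (50.2 and 49.5 CPM, then 33.4 and 27.0 CPM, −0.72). *Mmp3* kept its call under 4 of 18 alternative fits and *Lcn2* under 11 of 19, and without any 1 library of 3.2 µM, of DMSO with LPS or of 32 µM, 0 genes of this list were called. *Nos2*, the inducible nitric oxide synthase, was at 144 and 150 CPM at 3.2 µM and 109 and 113 CPM at 10 µM. Its libraries did not overlap, and its difference of −0.40 (interval −0.60 to −0.21) had an adjusted p of 0.10. *Ptgs2*, the inducible cyclooxygenase, overlapped between doses (0.17, interval −0.09 to 0.44). *Acod1*, which makes itaconate, differed by −0.12 (interval −0.20 to −0.03, adjusted p = 0.33). *Spp1*, the osteopontin gene, passed the adjusted p at −0.55, short of 1.5-fold. So did *Odc1*, the first enzyme of polyamine synthesis, with 1678 and 1737 CPM at 3.2 µM and 1138 and 1166 CPM at 10 µM (−0.57, adjusted p = 0.0011).

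**Figure D2:**
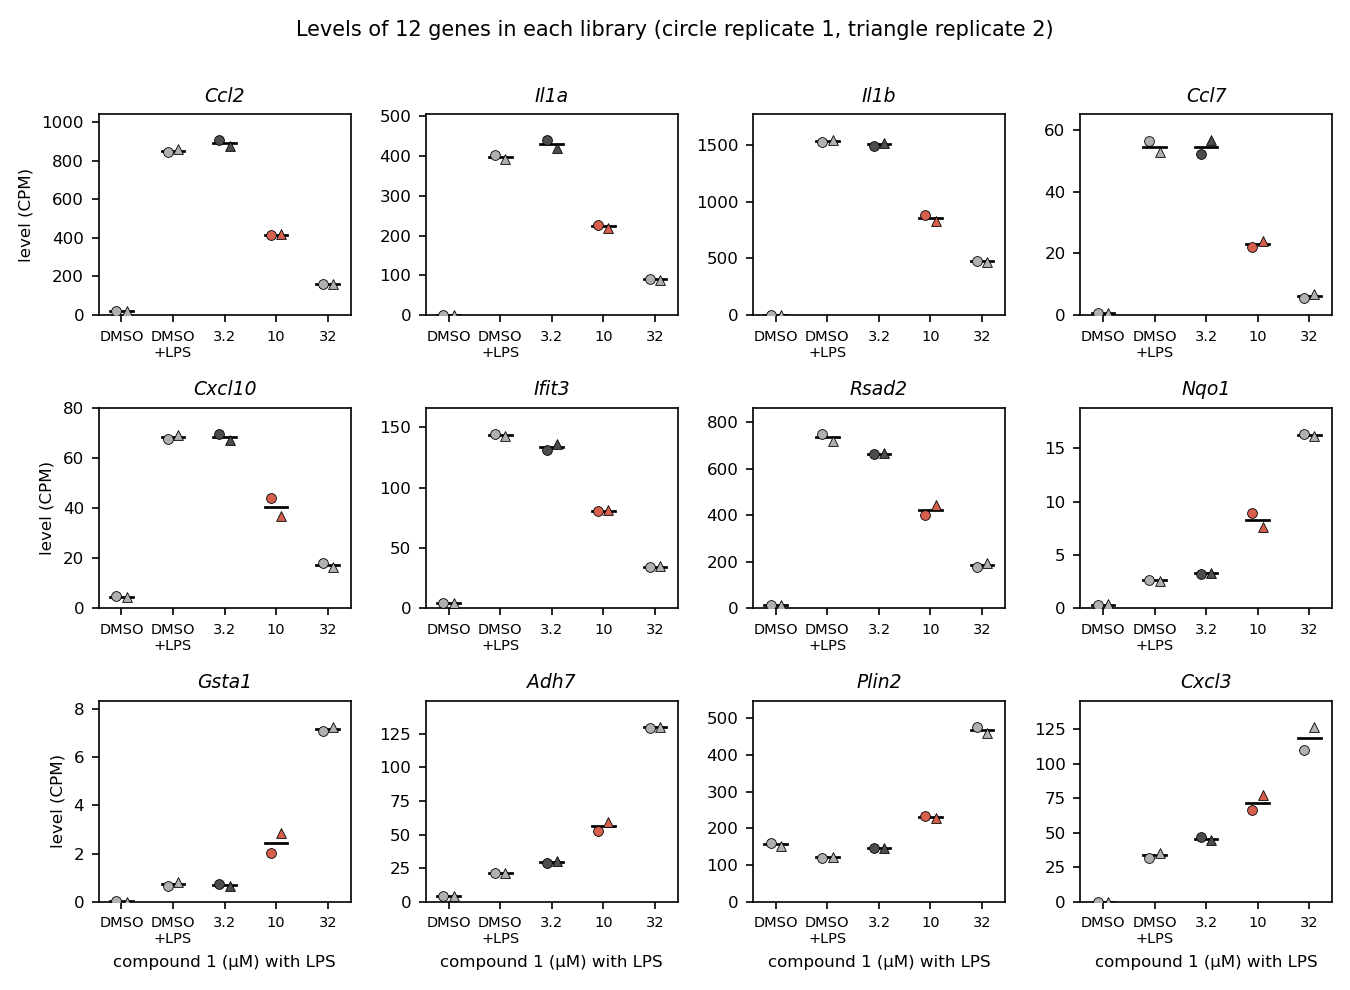
Each panel gives the level of 1 gene in CPM, from 0, in all 10 libraries by condition; circles and triangles are replicates 1 and 2, bars their mean, and the doses of 3.2 and 10 µM are dark grey and red. *Ccl2*, *Il1a*, *Il1b*, *Ccl7* and *Cxcl10* stay at the level of DMSO with LPS at 3.2 µM and lie lower at 10 µM, while both libraries of *Adh7*, *Plin2* and *Cxcl3* at each dose lie above those of the dose before.

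The interferon-stimulated genes, many of which encode antiviral proteins, differed in a single direction. All 83 tested members had a fitted difference below 0, between −0.74 and −0.10 with a median of −0.40, and in 79 the libraries did not overlap, where 16.8% of all tested genes were lower at 10 µM without overlap. Of the 83, 29 passed the adjusted p and 5 were also past 1.5-fold. Lower genes made up 0.649% and 0.183% of all genes tested by these 2 rules. *Rsad2*, which encodes the antiviral radical SAM enzyme viperin, was at 662 and 668 CPM at 3.2 µM and 403 and 445 CPM at 10 µM (−0.65, interval −0.83 to −0.47, adjusted p = 0.012). *Cmpk2*, a mitochondrial nucleotide kinase encoded beside it, was at 344 and 351 CPM and then 221 and 231 CPM (−0.62). *Ifit3*, of the family that binds foreign RNA, was at 131 and 136 CPM and then 80.3 and 81.7 CPM (−0.72, interval −0.82 to −0.62, adjusted p = 6.4e-04).

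*Ifit3b*, a close copy of *Ifit3*, differed by −0.62, and reads that both genes could take make their separate values uncertain. *Zbp1*, a sensor of Z-form nucleic acids, was at 125 and 126 CPM and then 86.1 and 78.8 CPM (−0.60). *Ifit1* passed the adjusted p and lay just short of 1.5-fold (−0.58). *Irf7*, a transcription factor of the interferon response, passed it at −0.39. *Isg15*, a ubiquitin-like protein, had a larger difference of −0.61, but its 10 µM libraries stood at 367 and 305 CPM and the adjusted p was 0.13. The smallest differences in the group were those of *Irf9* (−0.10), *Rtp4* (−0.11) and *Oas2* (−0.11).

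Without the first replicate at 10 µM, 81 of the 83 were below 0 with a median of −0.37, and 10 passed the adjusted p, 3 of them called. Without the second, 81 were below 0 with a median of −0.43, 14 being called. Without the first or the second replicate at 3.2 µM all 83 stayed below 0, with 1 called in each case.

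Promoter sequence was not used in choosing the called genes. Of the 26 called lower, 19 had a promoter in the RefSeq table (build GRCm38.p6), and 6 of the 19 (31.6%) held the ISRE core GAAANNGAAA on either strand in the 250 bases before the start of transcription. The share was 3.46% of all 27025 genes in the table, 3.40% of the tested genes with a promoter and 44.8% of the 67 tested interferon-stimulated genes with one. None of the 8 genes called higher with a promoter held it. The ARE core TGACNNNGC was in 3 of the 19 (15.8%) and in 1 of the 8 (12.5%), against 11.5% of all genes and 13.9% of the tested ones. It was in 41.2% of the tested glutathione and thioredoxin genes with a promoter and in 15.8% of the quinone, aldehyde and conjugating enzymes. The κB consensus was in 2 of the 19 (10.5%) and in 1 of the 8 (12.5%), against 4.46% of all genes and 5.41% of the tested ones. It was in 41.7% of the tested members of the chemokine list with a promoter and in 22.2% of the cytokines. A match is a run of letters and does not show that a factor binds there. The stretches around the ISRE matches are shown for these 6 genes, which were picked because they hold the motif. The 6 of 19 count both *Ifit3* and its close copy *Ifit3b*. Each runs 5′ to 3′ along the gene's strand and ends before the start given by RefSeq, with the match, or its reverse complement, in capitals. They lie at chr19:34583328-34583461 (+) for *Ifit3*, chr19:34607724-34607857 (+) for *Ifit3b*, chr12:26456518-26456617 (−) for *Rsad2*, chr5:92349048-92349139 (−) for *Cxcl10*, chr3:142594665-142594764 (+) for *Gbp2b* and chr6:129180381-129180480 (+) for *Clec2d*.
Ifit3: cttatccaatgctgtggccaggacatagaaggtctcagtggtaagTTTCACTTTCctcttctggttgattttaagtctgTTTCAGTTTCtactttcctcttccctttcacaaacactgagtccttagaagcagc
Ifit3b: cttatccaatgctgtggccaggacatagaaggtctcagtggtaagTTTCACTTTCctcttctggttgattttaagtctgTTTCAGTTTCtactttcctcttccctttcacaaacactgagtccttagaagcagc
Rsad2: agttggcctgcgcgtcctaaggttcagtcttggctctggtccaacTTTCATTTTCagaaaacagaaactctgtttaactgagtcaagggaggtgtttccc
Cxcl10: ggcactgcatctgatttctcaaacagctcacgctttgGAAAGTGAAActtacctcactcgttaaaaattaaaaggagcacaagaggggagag
Gbp2b: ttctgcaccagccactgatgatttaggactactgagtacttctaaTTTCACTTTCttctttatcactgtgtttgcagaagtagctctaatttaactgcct
Clec2d: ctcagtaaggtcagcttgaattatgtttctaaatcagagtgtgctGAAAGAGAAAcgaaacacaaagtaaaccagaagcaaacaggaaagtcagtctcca

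*Ifit3* and *Ifit3b* have the same 134 bases here, with 2 matches each, so the copies cannot be told apart by this stretch. The bases that follow RefSeq's start were found in a GENCODE M21 transcript of the gene for the other 4 but not for *Ifit3* and *Ifit3b*, whose distances therefore rest on RefSeq's start alone. No annotated exon overlapped any of the 6 stretches. The matches begin or end 111 to 213 bases before that start in the 6 genes. *Gbp2b*, a guanylate-binding GTPase, was at 90.9 and 95.8 CPM at 3.2 µM and 56.1 and 63.8 CPM at 10 µM (−0.64). *Clec2d*, the ligand of an inhibitory natural killer cell receptor, was at 4.40 and 4.75 CPM and then 2.36 and 2.08 CPM (−1.04).

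The remaining genes called lower were of other kinds. *Hdc* encodes histidine decarboxylase, which makes histamine, and was at 20.9 and 20.7 CPM and then 12.7 and 11.1 CPM (−0.80). *Slc28a2*, a nucleoside transporter, was at 24.5 and 24.0 CPM and then 12.4 and 12.9 CPM (−0.94). *Upp1*, which encodes uridine phosphorylase, differed by −0.63. *Il4i1*, an amino acid oxidase, differed by −0.73 and *Adra1a*, the α1A adrenergic receptor, by −0.73. *Fcgr1*, the high-affinity IgG receptor and one of the macrophage markers, was at 54.1 and 52.5 CPM and then 36.9 and 32.6 CPM (−0.62). The other 4 were *Slamf9* (−0.98), *Gm14085* (−1.03), *Gm43302* (−0.61) and the transcribed pseudogene *Gm2619* (−0.73). *Slamf9* kept its call under 4 of 18 alternative fits and *Gm14085* under 7 of 18. *Gm43302* kept it under 10 of 19 and *Gm2619* under 8 of 19.

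Several of the lower genes were neighbours in the genome (GRCm38, GENCODE M21 annotation). In 5 pairs, a feature looked for after the values were seen, the genes lay within 100 kb of each other. How often other tested genes, or those raised by LPS, lie this close was not counted, so no excess is claimed. *Ccl2* (chr11:82035571-82037453) and *Ccl7* (chr11:82045712-82047525) were 8.26 kb apart on the same strand. *Rsad2* (chr12:26442746-26456452, −) and *Cmpk2* (chr12:26469204-26479837, +) were 12.8 kb apart and divergent. *Ifit3* and *Ifit3b* on chromosome 19, *Slc28a2* and *Gm14085* on chromosome 2, and *Il1a* and *Il1b* on chromosome 2 were 19.2, 23.8 and 54.6 kb apart. No 2 genes called higher lay within that distance.

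Among the genes called higher, 2 belonged to Nrf2's quinone, aldehyde and conjugating enzymes. Of 22 tested, 20 had a difference above 0, against 7439 of all 14172 genes, with a median of 0.33. Of all genes tested, 0.0706% were called higher. *Nqo1*, the quinone reductase widely used as an Nrf2 readout, was at 3.26 and 3.35 CPM at 3.2 µM and 8.94 and 7.61 CPM at 10 µM, which is 2.50-fold (log2 1.32, interval 1.07 to 1.58, adjusted p = 0.0031). *Gsta1*, a glutathione transferase, had 34 and 32 counts at 3.2 µM and 95 and 129 counts at 10 µM, or 3.56-fold (1.83, interval 1.20 to 2.46, adjusted p = 0.029). The libraries at 10 µM were above those at 3.2 µM in both genes. *Gsta1* has close copies, so its reads may be split with *Gsta2*, which was at about 1 to 2 CPM and not called (0.82). The aldo-keto reductases *Akr1b3* (0.49) and *Akr1b8* (0.56) passed the adjusted p without 1.5-fold. *Gsta4*, another transferase of the list, had 42 and 2 counts at 10 µM and 3 and 0 at 3.2 µM, so that its fitted difference of 3.82 rested on the library with the epithelial counts. Without that library 17 of 22 were above 0, with a median of 0.36 and *Nqo1* and *Gsta1* again among the 7 genes called higher. *Nqo1* kept its call under 15 of 19 alternative fits and *Gsta1* under 8 of 18. Without either library of 3.2 µM, 0 genes of this list were called, and without either library of DMSO with LPS or of 32 µM, 1 was.

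Of 21 glutathione and thioredoxin genes, 17 were above 0 with a median of 0.15 and none was called, while 6 passed the adjusted p. The 6 were higher at 10 µM, as were 0.254% of all genes tested by that rule. *Prdx1*, a peroxiredoxin, stood at 5305 and 5268 CPM at 3.2 µM and at 7359 and 6724 CPM at 10 µM (0.41, interval 0.28 to 0.55, adjusted p = 0.023). *Srxn1*, which repairs peroxiredoxins, went from 724 and 734 CPM to 898 and 878 CPM (0.28). *Gclm*, the modifier subunit of the enzyme that limits glutathione synthesis, went from 370 and 377 CPM to 474 and 521 CPM (0.41, adjusted p = 0.049). *Cat* (catalase, 0.36), *Slc48a1* (a heme transporter, 0.37) and *Osgin1* (0.52) were the other 3. *Txnrd1*, thioredoxin reductase 1, differed by 0.18 (adjusted p = 0.36). *Hmox1*, the heme-degrading enzyme, was at 1187 and 1170 CPM and then 1485 and 1354 CPM, and its difference of 0.27 (interval 0.14 to 0.40) had an adjusted p of 0.092. Without the first replicate at 10 µM, 14 of the 21 were above 0 and none passed the adjusted p, and without the second the median was 0.24 and 2 passed it. Without either library of 3.2 µM none passed it, and without either library of DMSO with LPS 1 did. Without either library of 32 µM 4 did. The 8 NADPH-producing enzymes were all above 0, with none past the adjusted p and a median of 0.12, which was 0.05 without the first replicate at 10 µM.

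*Adh7*, the class IV alcohol dehydrogenase that oxidizes retinol, was at 28.8 and 30.1 CPM at 3.2 µM and 52.8 and 59.2 CPM at 10 µM (0.93, interval 0.78 to 1.07, adjusted p = 0.0011). It kept its call under 18 of 19 alternative fits, as did *Ccl2*, *Il1a* and *Il1b*. *Plin2*, a coat protein of lipid droplets and a target of PPARs, was at 147 and 146 CPM and then 234 and 229 CPM (0.66, interval 0.55 to 0.77, adjusted p = 0.0017). *Cpt1a*, which admits fatty acids to mitochondria for oxidation, passed the adjusted p at 0.53. These were the 2 members of the PPAR and fatty acid oxidation list to pass it, of 32 tested with a median of 0.05, and 1 of them, *Plin2*, was called. *Enpp2*, which encodes autotaxin, the enzyme that makes lysophosphatidic acid, was at 3.04 and 2.81 CPM and then 6.45 and 6.75 CPM (1.17). *Pcx*, pyruvate carboxylase, was at 17.6 and 18.9 CPM and then 28.5 and 26.5 CPM, just past 1.5-fold (0.59).

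The other genes called higher were *Tarm1*, an activating receptor of myeloid cells (0.67), the serpin *Serpinb9b* (0.65) and *Prl2c2*, a proliferin. *Prl2c2* had 66 and 58 counts at 3.2 µM and 204 and 178 counts at 10 µM (1.69), and it belongs to a family of near-identical genes between which reads can be split. The genes nearest to the fold threshold were *Pcx* inside it, at 0.59, and *Cd83* (−0.58), *Ass1* (0.58), *Ifit1* (−0.58), *Phf11b* (−0.58), *Apol9a* (−0.57), *Odc1* (−0.57) and *Gm7609* (−0.57) outside.

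**Figure D3:**
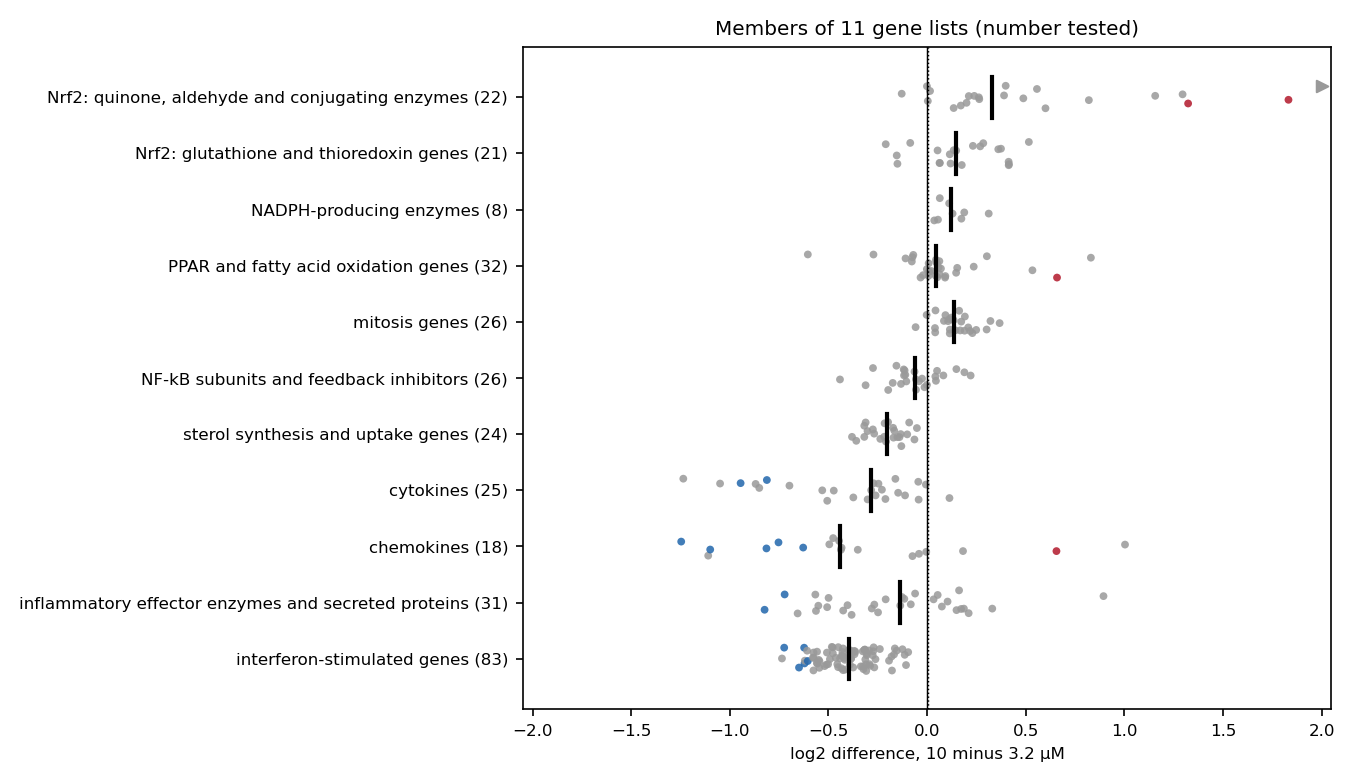
Each dot is 1 tested member of a gene list, placed by its log2 difference, 10 minus 3.2 µM; blue and red mark genes called lower and higher, thick bars the list medians, the dotted line the median of all genes (0.01), and the triangle *Gsta4*, which lies beyond the axis. All 83 interferon-stimulated genes and all 24 sterol genes lie left of 0, and 20 of the 22 quinone, aldehyde and conjugating enzymes lie right of it.

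The 24 genes of sterol synthesis and uptake were all below 0, in 22 without overlap of the libraries (16.8% over all genes), with a median of −0.20. In the reported fit none was called or passed the adjusted p. With the short-transcript score in the fit 18 passed it, and by DESeq2 on 10 libraries 7, with none called in either. *Insig1*, which restrains the sterol pathway, differed by −0.36. The same 24 were below 0 without the first replicate at 10 µM (median −0.19). Of 26 mitosis genes 24 were above 0 (median 0.14, and 0.06 without the second replicate at 10 µM), and *Cdc20*, an activator of the anaphase-promoting complex, was the 1 to pass the adjusted p (0.32). The 26 genes of NF-κB subunits and feedback inhibitors had a median of −0.06, and *Irak3*, a brake on Toll-like receptor signalling, was the 1 past the adjusted p (−0.31). Pattern recognition genes had a median of −0.12 with 1 of 38 called lower, the IgG receptor *Fcgr1*. Costimulation genes had a median of −0.15 with none of 20 called. Without the first replicate at 10 µM these 2 medians were −0.13 and −0.16. Medians lay between −0.054 and 0.053 for the lists of heme and iron, arginine and polyamine, AP-1, LXR, ATF4, heat-shock, glucocorticoid, lysosome, glycolysis and DNA replication genes, with no member called. A median near 0 can hold members that differ. Of 16 arginine and polyamine genes, 1 passed the adjusted p higher and 2 lower. Of 21 LXR genes 2 passed it lower, and of 32 lysosome genes 1 passed it higher. Without the second replicate at 10 µM the arginine and polyamine list had a median of −0.19 and 1 gene called lower, and the LXR list had 1 called higher. Without the first replicate at 3.2 µM, 1 arginine and polyamine gene was also called lower. The glucocorticoid median was −0.13 without the first replicate at 10 µM and 0.074 without the second. *Mt1*, a metallothionein, was at 396 and 210 CPM in the 2 libraries at 10 µM, so that its difference of −0.09 had an interval of −1.30 to 1.11.

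The 36 called genes were then read in 2 comparisons whose group means use none of the 4 libraries, which enter there through the shared estimate of spread alone. In DMSO with LPS against DMSO alone, 3995 genes (28.2%) were called, and all 26 genes lower at 10 µM and 8 of the 10 higher ones were among the 2072 raised by LPS. The other 2, *Plin2* and *Pcx*, were not called there. In 32 µM against DMSO, both with LPS, 592 genes were called (4.18%). All 36 were among them, each in the same direction, which is 100% of the shorter list and 6.08% of the longer. The 2 libraries at 32 µM agreed least of all groups, with a chi-square of 189.89 per degree of freedom. The second had a ribosomal RNA share of 0.247% and a short-transcript score of −0.28. In it, 5 genes over 1 CPM and more than 10 times any other library held 4.33% of its counts, none of them among the 36.

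The genes called at 32 µM were read the other way, in the step from 3.2 to 10 µM. Of the 180 genes higher at 32 µM than in DMSO with LPS, 178 had a difference above 0 between 10 and 3.2 µM, with a median difference of 0.33 (quartiles 0.24 and 0.54), and in 162 the libraries did not overlap, against 17.4% of all genes. Of the 412 genes lower at 32 µM, 398 had a difference below 0, with a median of −0.38 (quartiles −0.55 and −0.24), and 370 did not overlap, against 16.8%. Few of these differences passed both thresholds between 10 and 3.2 µM, namely 10 of the 180 and 26 of the 412. Of the 2072 genes raised by LPS, 1293 (62.4%) had a difference below 0, against 6733 of all 14172 genes, with a median of −0.05, and 26 were called lower. Of the 1923 lowered by LPS, 1181 had a difference above 0, against 7439 of all genes, and none was called. Their median was 0.04, which was 0.0029 without the second replicate at 10 µM.

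The step from 3.2 to 10 µM was set beside those on either side of it, with which it shares libraries. The steps to 10 and to 32 µM are about equal on a log scale, whereas the first starts from no compound and has no length on that scale. The genes below were chosen by the second step, so its size in them, and in part that of the first step through the shared libraries at 3.2 µM, follows from the choice. From DMSO to 3.2 µM, both with LPS, no gene was called by edgeR (0%). At an unadjusted p below 0.05 there were 600, where the step to 10 µM gave 1187. In each such test, a share of 0.05 of the 14172 genes would be expected to pass unadjusted without any difference. The first step was tested in the reported fit alone and not under the alternatives. From 10 to 32 µM, 187 genes were called (1.32%). The 26 lower genes had a median first step of −0.10 (range −0.49 to 0.34), a second of −0.73 and the third of −1.01 (−1.89 to −0.23). In 19 of the 26 the first step was within 0.2 of 0, and 23 were called again in the third. The 10 higher genes had a median first step of 0.23 (−0.10 to 0.49), a second of 0.80 and the third of 0.78 (0.12 to 1.55), and 7 were called again in the third.

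**Figure D4:**
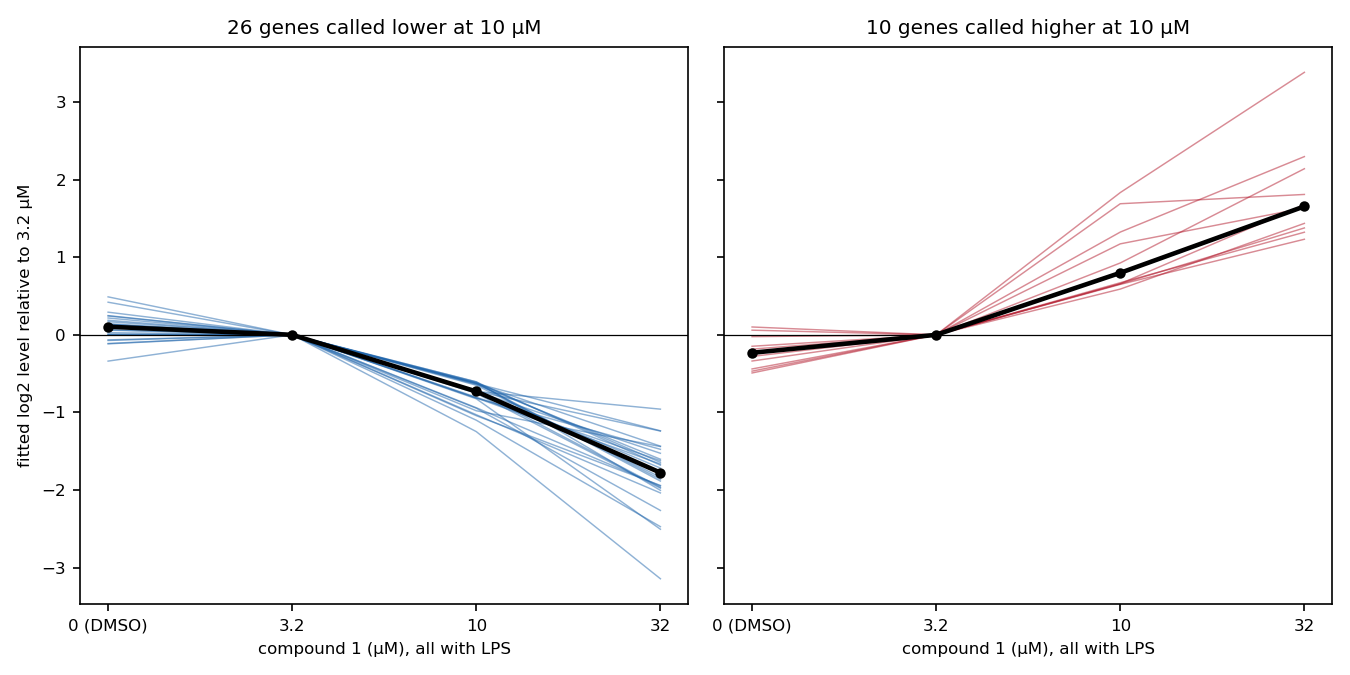
Fitted log2 levels of the called genes relative to 3.2 µM are plotted against the dose of **1**, all with LPS; thin lines are genes, the black line their median, and 0 µM is placed for display only. The 26 lower genes (left) have a median first step of −0.10 (range −0.49 to 0.34), within 0.2 of 0 in 19 of them. The 10 higher genes (right) have a median first step of 0.23.

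The difference between steps was tested in the same fit. The second step differed from the first in 3 genes (0.0212%, with 577 at an unadjusted p below 0.05). *Ccl2* was at 844 and 862 CPM in DMSO with LPS, and its first step of 0.06 against a second of −1.10 gave a difference of −1.16 (adjusted p = 0.0024). *Il1a* was at 402 and 393 CPM in DMSO with LPS and had steps of 0.11 and −0.95 (difference −1.06, adjusted p = 0.0077). *Il1b* was at 1529 and 1541 CPM there and had steps of −0.03 and −0.81 (difference −0.78, adjusted p = 0.029). In these 3 genes the libraries at 3.2 µM differed little from DMSO with LPS, and those at 10 µM lay clearly lower. Without either library of 3.2 µM no gene passed this test, and without either library of DMSO with LPS 1 did, *Ccl2*. *Il1b* also did not pass it with scaling by library size alone, without the second replicate at 10 µM or without either library of 32 µM.

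The second step was not distinguished from the third in any gene by edgeR as reported here (0 called, with 645 at an unadjusted p below 0.05). DESeq2 called 22, and other edgeR fits called 49 with the short-transcript score, 8 without a count filter, 4 with the replicate block, 7 without the second replicate at 10 µM and 1 without the first at 32 µM. *Prl2c2* had steps of −0.06, 1.69 and 0.12, and *Enpp2* of 0.49, 1.17 and 0.46, and neither was called when the second step was tested against the first (adjusted p = 0.79 and 1.00) or the third (0.73 and 0.92). *Gsta1* had steps of −0.10, 1.83 and 1.55, and *Nqo1* of 0.34, 1.32 and 0.97. *Adh7* had steps of 0.47, 0.93 and 1.21, and *Plin2* of 0.28, 0.66 and 1.02, each larger than the one before. Neither *Adh7* nor *Plin2* was called when the second step was tested against the first (adjusted p = 0.76 and 0.72) or the third. Interferon-stimulated genes had median steps of −0.09, −0.40 and −0.89, and cytokines of −0.03, −0.28 and −0.79. *Pmepa1*, an inhibitor of TGF-β signalling, had its largest step at the first dose, 0.67, against 0.15 and −0.01 after it, and none of its steps was called.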

How the data were processed

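The authors made poly(A)-selected, strand-marked libraries, sequenced them as paired reads and deposited raw counts per Ensembl gene, 1 column per library, with no normalization. Per the labels, Trimmomatic, FastQC, STAR, DESeq2 and the build mm10 were used. The counter, its strand setting and the annotation are not given in the sources used here, so reads of overlapping genes may be mixed. Symbols and positions came from GENCODE M21, in which 884 genes (0.0948% of counts) had none.

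Counts were tested with edgeR 4.0.16 in R 4.3.3 (quasi-likelihood, TMM, filterByExpr with a minimum count of 10) over all 10 libraries, which share the estimate of spread (5 residual degrees of freedom). Levels are CPM scaled by TMM factors. Intervals are 95% intervals of the fit. An exact permutation test of 2 against 2 libraries cannot go below p = 0.333. Median differences of lists carry no test. The genes named were all called genes, the called and 3 most abundant members of each of 23 lists, 20 readout genes, and others stated where named. The comparison and lists were chosen with earlier results of these data known. No 2 libraries were near-duplicates (chi-square per degree of freedom at least 3.37). Scripts were tested on simulated data. Alternatives used DESeq2 1.42.0, other scalings and filters, a replicate block, a short-transcript score and left-out libraries.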

Additional observations from a re-analysis of the deposited data

How the results depend on the processing

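Between 10 and 3.2 µM, leaving out 1 of the 8 libraries with LPS at a time gave 5 to 66 calls, 1 to 27 higher and 4 to 39 lower. The lowest counts, 6 and 5, were those without the first and the second replicate at 3.2 µM, and the highest that without the second at 10 µM. Without either library of DMSO with LPS, chosen after seeing the data, there were 19 (6 higher, 13 lower). Without replicate 1 of both doses, chosen after seeing the data, 4 remained called (1 higher, 3 lower). *Ccl2*, *Il1a*, *Il1b* and *Adh7* kept their calls under 18 of 19 alternatives, all but edgeR on 4 libraries.

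edgeR on 4 libraries called 0 genes in either direction, DESeq2 on 10 libraries 55 (16 higher), and a score of the share of short transcripts in the fit 93 (27 higher, 66 lower). A 2-fold cutoff left 8 (4 higher, 4 lower), and none at all gave 128 (36 higher, 92 lower). The share of higher calls was 27.8% in the reported fit and over 10 points away without the second replicate at 10 µM (40.9%), without the first at 3.2 µM (16.7%), on 4 libraries with the block (47.2%) and at 2-fold (50%). The replicate numbers of the labels are only shared numbers, since nothing says what they mark and the deviations of same-numbered libraries correlated between −0.41 and 0.82 over group pairs (0.53 for 10 and 3.2 µM). With the replicate block, 43 genes were called (34 of the 36 among them), and on 4 libraries with the block 36, of which 17 were higher and 22 among the reported 36.

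The second step against the first gave 5 genes without a count filter, 29 with the short-transcript score, 10 by DESeq2, 0 without replicate 1 of both doses and 0 to 3 with 1 library left out. The second against the third gave 8 without a filter, 4 with the block, 49 with the score, 22 by DESeq2 and 0 to 7 with 1 library left out. The median of genes higher at 32 µM was 0.35 by library size alone, 0.35 without a filter, 0.31 with a mean of at least 5 CPM, 0.34 by DESeq2 and 0.35 without replicate 1 of both doses. That of genes lower at 32 µM was −0.35 with a mean of at least 5 CPM and −0.35 with the score. That of genes raised by LPS was −0.080 without replicate 1 of both doses. Ranges with 1 library left out were 0.32 to 0.35 for genes higher at 32 µM, −0.39 to −0.37 for those lower, −0.081 to −0.054 for genes raised by LPS and 0.0029 to 0.052 for those lowered. Among single genes and list medians, 2309 values kept their side of the threshold or moved less than the replicates, 239 lost a call, 19 gained one, 46 medians moved and no called value reversed. Medians near 0 of 7 lists changed sign under some of 19 alternatives, that of the heat-shock genes most often (sign kept in 12, −0.039 to 0.030). The cause of these shifts was not tested.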
